A study of Saccharomyces cerevisiae with 24 samples.

Results

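Hel2 is the ubiquitin ligase that recognises collided ribosomes in budding yeast (Saccharomyces cerevisiae), and the signal recognition particle (SRP) brings ribosomes that translate secretory and membrane proteins to the endoplasmic reticulum (ER). SRP72 encodes a protein subunit of SRP. The comparison described here is between footprints recovered with Hel2 from the membrane fraction of cells in which SRP72 was expressed from either of 2 promoters. It used the 4 membrane immunoprecipitation (IP) libraries with these labels, of 24 libraries in the series: 2 labelled SRP72p and 2 labelled GIT1p. They were chosen by their labels alone, and all IP and input libraries of both promoter strains entered the fit, where they share in the expression filter, the scaling and the estimate of the spread.

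Both groups were MATa cells with the alleles ade2, his3, leu2, trp1, ura3 and can1, and both carried HEL2-FTP::natNT2, a tagged Hel2 made from its own locus. In both, the chromosomal SRP72 was replaced by srp72::HISMX6. A V5-tagged SRP72 was supplied on the plasmid pRS415, under the SRP72 promoter in the group SRP72p and under the promoter of GIT1, a glycerophosphoinositol permease gene, in the group GIT1p. Cells grew in YPD and received no other treatment per the labels. Membranes were dissolved in Triton X-100 ahead of the IP, and footprints were made with RNase I. Another strain, HEL2-FTP, which kept the chromosomal SRP72, served for reference levels. Nothing in the labels says that replicates were separate cultures, so p-values measure only the spread between these samples, which may be technical. A reference to SRP72p or GIT1p libraries below is to their labels, and each direction rests on those labels.

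When a ribosome stalls and the next one runs into it, Hel2 marks the collided pair with ubiquitin, and the RQT complex of Slh1, Cue3 and Rqt4 then takes the stalled ribosome apart. Secretory proteins normally meet SRP while still being made. Their ribosomes dock on the Sec61 or Ssh1 channel, where the chain may be glycosylated by oligosaccharyltransferase or O-mannosylated, folded by ER chaperones, and sent on to the cell wall, the plasma membrane or the vacuole.

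The 4 libraries held 2015928 to 4349864 counts, and 3 counts were worth 0.737 to 1.57 CPM (counts scaled by library total and TMM factor, as all CPM below). The 2 libraries of a label were not the same library deposited again: a chi-square statistic of their counts, divided by its degrees of freedom, was 2.13 for SRP72p and 3.87 for GIT1p, where sampling alone gives about 1. Frames encoded in mitochondria took 0.542% and 0.566% of counts in the SRP72p libraries and 0.944% and 0.742% in the GIT1p libraries. TMM factors were 0.936 and 0.95 for SRP72p and 0.795 and 0.817 for GIT1p, so scaling moves with the label. Replicates of the membrane inputs were further apart: the same ratio was 78.3 for SRP72p and 17.6 for GIT1p, and the mitochondrial shares were 0.815% and 0.0402% for SRP72p and 0.00363% and 0.125% for GIT1p. The 7 listed MATa-specific genes summed to between 606 and 770 CPM in the 4 libraries, and the 4 listed genes specific to MATalpha cells to between 6.14 and 20.8 CPM. Of the 7, the a-specific mating genes STE2 and BAR1 were present in all 4 libraries at 150 to 263 CPM, while MFA1, given below, was much lower.

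SRP72 (YPL210C; chromosome XVI, 154290 to 156212, assembly R64) gave 43.5 and 46.0 CPM in the SRP72p libraries and 231 and 195 CPM in the GIT1p libraries. The groups did not overlap, and the level was 4.76-fold higher under the GIT1p label, from 44.7 ± 1.78 (SD, n = 2) to 213 ± 25.6 CPM (SD, n = 2). The log2 difference was 2.26 (SE 0.13, edgeR adjusted p = 4.52e-08). In the HEL2-FTP strain the membrane IP gave 67.5 and 63.5 RPM (reads scaled by library total), between the 2 labels, though on another scale. GIT1 (YCR098C; chromosome III, 297049 to 298605) gave 8.59 and 10.4 CPM against 25.6 and 32.0 CPM, a log2 difference of 1.64 (SE 0.34, edgeR adjusted p = 0.00281, and 0.0525 without SRP72p replicate 1).

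In the fit with TMM scaling and the expression filter, none of the other 7 genes of SRP and its receptor passed the test. Of the 8 tested, 1 (SRP72) was called higher. SRP54, the subunit that binds the signal sequence, gave 63.6 and 54.9 CPM against 61.4 and 59.5 CPM, and the groups overlapped. SRP68, the partner of Srp72 in the particle, gave 55.0 and 51.7 CPM against 41.1 and 42.3 CPM, with a log2 difference of -0.36 (SE 0.15, edgeR adjusted p = 0.0993). The log2 differences of SRP14, SRP21 and SEC65 were -0.57, 0.43 and 0.02, and those of the genes for the alpha and beta subunits of the SRP receptor were -0.34 and -0.26. With library totals alone, SRP68 was called lower (log2 difference -0.59, edgeR adjusted p = 0.0148). So was the gene for the alpha subunit of the receptor (-0.56, edgeR adjusted p = 0.013). SRP68 was also called lower without the expression filter (-0.46, edgeR adjusted p = 0.0331).

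Over all genes, 5714 of 6696 counted features passed the expression filter. At a Benjamini-Hochberg adjusted p below 0.05, 723 (12.7%) were higher and 690 (12.1%) lower in the GIT1p libraries, and these shares are the background for every count below. Of those, 284 and 124 differed at least 2-fold, and the median size of the log2 difference was 0.85 among the higher and 0.66 among the lower. Both libraries of one label lay above both of the other for 62.9% of all tested genes, so non-overlap on its own is common. The count was 869 without SRP72p replicate 1, 931 without SRP72p replicate 2, 901 without GIT1p replicate 1 and 934 without GIT1p replicate 2. It was 1620 and 1622 without SRP72p membrane input replicate 1 or 2, and 1796 in a fit of the 4 membrane IPs alone. Scaling by the library totals that the deposited RPKM values imply gave 147 calls, 127 higher and 20 lower, and kept 45 of the 123 called genes named by rule, while scaling by the sum of counts alone gave 435 higher and 1310 lower. Most genes named below are from a rule that was chosen with earlier results of these data known. Some, such as SLH1, SEC61 and FLO11, are not from that rule. With RPKM-implied totals no member was called of the lists of glycolytic enzymes, respiratory chain, amino acid permeases, ergosterol synthesis, mitochondrial import, ER translocation, GET and SND targeting, O-mannosylation, ER folding, ER-associated degradation, MATa genes, histones or elongation factors, and the calls given for those lists below do not hold under that scaling. Below, a count of list members called without 1 library need not be of the same genes.

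**Figure D1:**
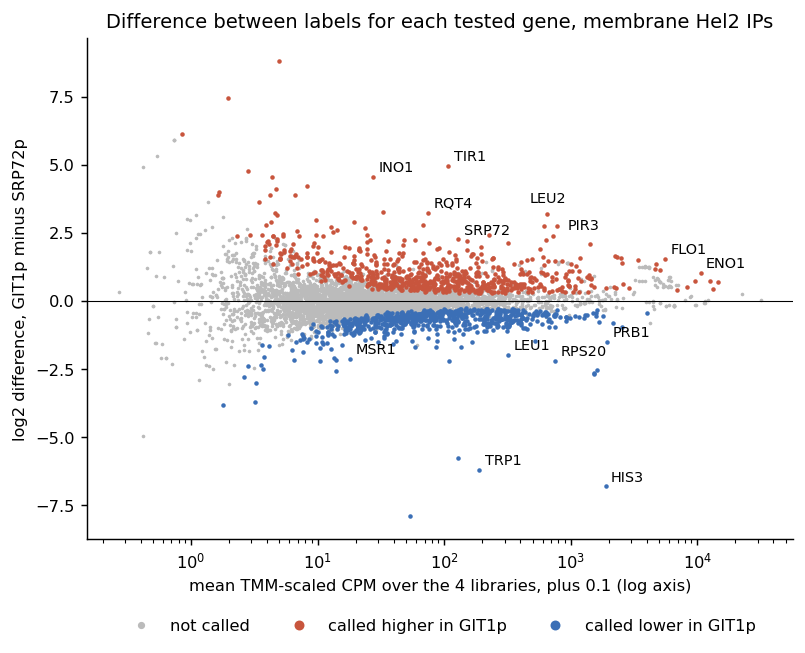
Each point is a tested gene, with its mean level over the 4 membrane IP libraries (TMM-scaled CPM plus 0.1, log axis) and its log2 difference, GIT1p minus SRP72p. Called genes (edgeR adjusted p below 0.05; 723 higher in red, 690 lower in blue) lie on both sides of 0 across the range of levels. HIS3 and TRP1 are among the 4 lowest points of the called genes above 10 CPM, and TIR1 and INO1 are the highest labelled ones.

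Some of the largest differences were in genes that are strain markers. HIS3 (YOR202W; chromosome XV, 721946 to 722608), an enzyme of histidine synthesis, gave 3895 and 3584 CPM in the SRP72p libraries against 34.9 and 32.0 CPM in the GIT1p libraries. It was 112-fold higher under the SRP72p label (log2 difference -6.80, SE 0.21, edgeR adjusted p = 7.37e-11). TRP1 (YDR007W; chromosome IV, 461842 to 462516), an enzyme of tryptophan synthesis, gave 376 and 373 CPM against 5.30 and 4.92 CPM, with a log2 difference of -6.19 (SE 0.41, edgeR adjusted p = 9.65e-08). LEU2 (YCL018W; chromosome III, 91324 to 92418), the leucine synthesis gene that pRS415 carries, went the other way, with 126 and 129 CPM against 1169 and 1188 CPM (log2 difference 3.21, SE 0.38, edgeR adjusted p = 3.11e-05).

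The genotypes in the labels do not differ at these markers: they give both groups the same his3, trp1 and leu2 alleles, the same HISMX6 deletion and the same plasmid backbone. The HEL2-FTP membrane IP, from the strain with no plasmid or HISMX6 in its label, gave 18.9 and 16.2 RPM for HIS3, 1.58 and 1.22 RPM for TRP1, and 91.9 and 95.7 RPM for LEU2, on another scale than the CPM. URA3 gave 42.0 and 47.0 CPM against 39.3 and 50.9 CPM and ADE2 21.6 and 28.7 CPM against 22.1 and 16.4 CPM, and neither was called. The same 3 marker differences were called in the cytosolic IPs (log2 -7.46, -6.47 and 3.13) and in the membrane inputs (log2 -4.69, -4.28 and 4.32). How far the marker differences bear on the other genes was not tested.

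The called genes of leucine, isoleucine and valine synthesis were lower, with the exception of LEU2: 7 of 13 were called lower and 1 higher, with a median log2 difference of -0.37 against -0.02 for all genes. LEU1, isopropylmalate isomerase, gave 500 and 515 CPM against 131 and 129 CPM, a 3.91-fold lower level in GIT1p (log2 difference -1.97, SE 0.13, edgeR adjusted p = 1.16e-07). OAC1, the mitochondrial carrier of oxaloacetate and isopropylmalate, gave 56.7 and 60.6 CPM against 20.3 and 18.5 CPM (log2 difference -1.59). BAT1, the mitochondrial branched-chain aminotransferase, gave 356 and 343 CPM against 194 and 172 CPM (log2 difference -0.93). All 3 were also called lower in the cytosolic IPs and in the membrane inputs.

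Genes of arginine, lysine and methionine synthesis lay on the other side: 15 of 24 were called higher and none lower, and the median was 0.64. With RPKM-implied totals 2 were called. ARG1, argininosuccinate synthetase, gave 365 and 342 CPM against 974 and 980 CPM (log2 difference 1.47, SE 0.09, edgeR adjusted p = 7.47e-08). MET3, ATP sulfurylase, gave 17.7 and 22.5 CPM against 50.8 and 49.6 CPM, and MET10, a sulfite reductase subunit, 79.1 and 75.8 CPM against 161 and 162 CPM.

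Other biosynthetic lists had calls in both directions, though in tryptophan and aromatic synthesis the only lower gene was the marker TRP1. In histidine synthesis 2 of 7 were higher and 2 lower, and 1 of the lower was the marker HIS3 (log2 difference -6.80). The higher ones were HIS4 and HIS7. HIS7 differed by 0.33 to 0.53 on the log2 scale across the fits without 1 membrane IP library. HIS4 rose from 1065 and 1044 CPM to 1750 and 1899 CPM. HIS1, the first enzyme of the route, fell by 0.62 on the log2 scale (edgeR adjusted p = 0.0697 without GIT1p replicate 2). In tryptophan and aromatic synthesis 3 of 10 were higher and 1, TRP1, lower. The 3 higher genes were ARO1, the pentafunctional shikimate enzyme (log2 difference 0.85), ARO4 (0.75) and TRP5, tryptophan synthase (0.68). In adenine and uracil synthesis 5 of 17 were higher and 5 lower. URA1, dihydroorotate dehydrogenase, gave 66.5 and 63.7 CPM against 182 and 147 CPM, and ADE17, which makes inosine monophosphate, gave 50.6 and 50.2 CPM against 34.5 and 24.6 CPM.

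**Figure D2:**
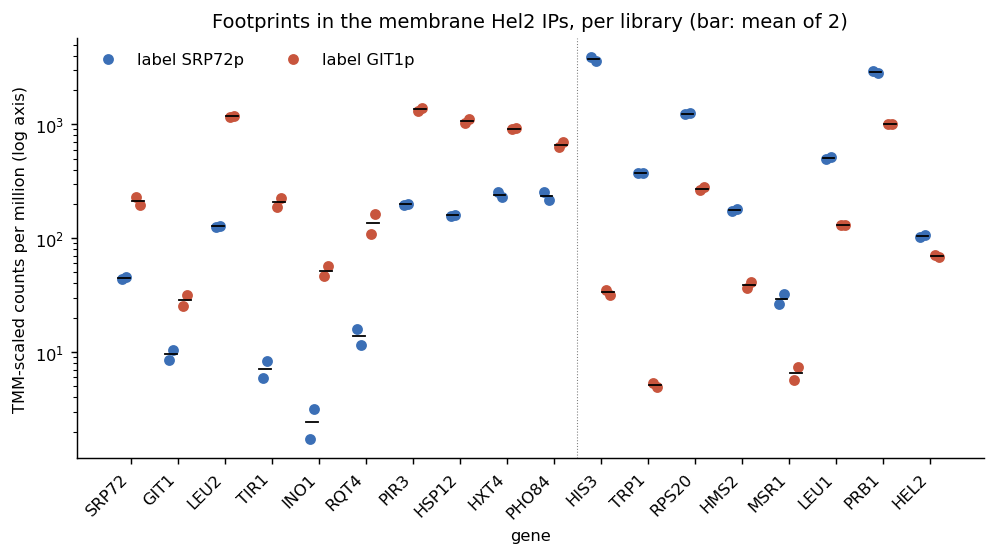
TMM-scaled CPM (log axis) of 18 named genes in each membrane IP library, with 2 points and a mean bar per label. The 10 genes left of the dotted line were higher and the 8 to its right lower in the GIT1p libraries. No gene's groups overlap, as was true of all 723 higher and 690 lower calls, so this adds nothing to the calls.

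Among genes with a RefSeq symbol and a mean of at least 10 CPM in the higher group, the largest rise was in TIR1 (YER011W), a serine-rich mannoprotein of the cell wall. It gave 5.89 and 8.36 CPM in the SRP72p libraries and 189 and 227 CPM in the GIT1p libraries, 29.2-fold higher (log2 difference 4.94, SE 0.34, edgeR adjusted p = 1.81e-07). INO1, inositol-3-phosphate synthase, the first step of inositol synthesis, gave 1.72 and 3.13 CPM against 46.8 and 57.0 CPM, 21.4-fold higher (log2 difference 4.56, SE 0.52, edgeR adjusted p = 2.25e-05). BIO4, dethiobiotin synthetase of biotin synthesis, gave 0.982 and 0.522 CPM, of which the second is under the worth of 3 counts, against 13.7 and 17.6 CPM. MLG1 (YDR018C) was also low in SRP72p, with 1.23 and 0 CPM, and reached 15.5 and 9.44 CPM.

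GND2 and TKL2, the minor isoforms of phosphogluconate dehydrogenase and transketolase in the pentose phosphate route, both rose: GND2 from 5.40 and 7.31 to 58.3 and 59.9 CPM, and TKL2 from 17.4 and 16.7 to 119 and 118 CPM. QDR2, a plasma membrane drug and potassium transporter, rose from 4.17 and 5.22 to 34.0 ± 1.83 CPM (SD, n = 2), and IZH4, a membrane protein involved in zinc homeostasis, from 2.21 and 2.09 to 19.0 and 15.2 CPM. All of these were called in each fit that left out 1 library, and were also called higher in the cytosolic IPs and the membrane inputs.

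Among the falls, RPS20 (YHL015W), a protein of the small ribosomal subunit, gave 1227 and 1256 CPM against 265 and 279 CPM, 4.57-fold lower in GIT1p (log2 difference -2.19, SE 0.13, edgeR adjusted p = 4.52e-08). HMS2, a protein similar to heat shock transcription factors, gave 174 and 182 CPM against 36.7 and 41.0 CPM. MSR1, the mitochondrial arginyl-tRNA synthetase, gave 26.5 and 32.4 CPM against 5.74 and 7.38 CPM (log2 difference -2.14, SE 0.32, edgeR adjusted p = 0.000226). FLR1, a drug exporter of the plasma membrane, fell from 86.4 and 92.5 to 32.2 and 23.4 CPM.

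PAL2 (YHR097C) fell from 201 and 213 to 59.6 and 69.7 CPM. The other falls named by rule came from low levels. MTQ1, a methyltransferase of mitochondrial release factor, gave 19.6 and 19.9 CPM against 5.74 and 5.74 CPM, and LDB17, a regulator of endocytic actin, gave 18.7 and 13.1 CPM against 4.42 and 5.33 CPM. AEP2, needed for expression of a mitochondrial ATP synthase gene, gave 11.8 and 12.0 CPM against 2.65 and 3.69 CPM, and was lost without GIT1p replicate 1 or SRP72p replicate 1 (edgeR adjusted p = 0.0898 and 0.0611). NBL1, a subunit of the chromosomal passenger complex, gave 12.5 and 8.36 CPM against 3.53 and 1.23 CPM, and was lost without SRP72p replicate 1 or GIT1p replicate 2 (edgeR adjusted p = 0.152 and 0.150).

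Of 31 secreted and GPI-anchored cell wall proteins, 23 were called higher and 2 lower, against 12.7% and 12.1% of all genes, and the median log2 difference was 0.79. PIR3, an O-mannosylated wall protein, gave 196 and 201 CPM against 1312 and 1391 CPM, 6.81-fold higher (log2 difference 2.77, SE 0.13, edgeR adjusted p = 1.28e-08). TIR4, of the TIR1 family, gave 7.86 and 3.66 CPM against 56.5 and 25.8 CPM, and DAN4 gave 32.9 and 39.7 CPM against 125 and 75.9 CPM, with the 2 GIT1p libraries apart from each other in both. The DAN4 call was lost without SRP72p replicate 1, SRP72p replicate 2 or GIT1p replicate 1 (edgeR adjusted p = 0.179, 0.0799 and 0.194). DAN1, an anaerobic wall mannoprotein, had 0 counts in both SRP72p libraries and 2 and 16 in the GIT1p libraries. Against 3 counts over the SRP72p group it was at least 7.43-fold higher (edgeR adjusted p = 0.0379). That call was lost without SRP72p replicate 1, SRP72p replicate 2 or GIT1p replicate 2 (edgeR adjusted p = 0.210, 0.0994 and 0.314), and the list median was the same with DAN1 set at that bound. The 2 lower members had log2 differences of -0.39 and -0.42. Without 1 library 19 to 21 members were called, and 9 with RPKM-implied totals.

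The flocculins are large, repeat-rich wall adhesins, and 4 of 5 were called higher with a median of 1.39. FLO1 gave 2918 and 2736 CPM against 9196 and 7396 CPM (log2 difference 1.55, SE 0.31, edgeR adjusted p = 0.0021). FLO5 gave 1882 and 1706 CPM against 5591 and 4521 CPM (edgeR adjusted p = 0.00931), a call lost without SRP72p replicate 1, SRP72p replicate 2 or GIT1p replicate 1 (edgeR adjusted p = 0.0568, 0.0732 and 0.0572). FLO9 gave 1389 and 1430 CPM against 4085 and 3320 CPM, and FLO10 gave 46.9 and 63.7 CPM against 144 and 125 CPM (edgeR adjusted p = 0.0128, and 0.137 and 0.0704 without SRP72p replicate 1 or GIT1p replicate 1). FLO1, FLO5 and FLO9 are near-identical, so reads may be split between them and they do not give 3 separate measurements. FLO11 was not called, with a log2 difference of 0.86.

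Most of the plasma membrane transporters that were called were higher. Of the 19 listed hexose transporter genes 8 were under the filter on low counts and 11 were tested, of which 5 were called higher and none lower (median log2 1.26). HXT4 gave 252 and 229 CPM against 905 and 920 CPM (log2 difference 1.92, SE 0.11, edgeR adjusted p = 4.58e-08), and HXT2 43.2 and 58.5 CPM against 125 and 139 CPM. HXT6 and HXT7, with log2 differences of 1.63 and 1.61, are almost identical in sequence and share reads. The hexose calls were 5 in each fit without 1 library.

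Of 20 amino acid permeases, 7 were higher and 1 lower (median 0.29). AGP1, a broad permease, gave 124 and 126 CPM against 232 and 237 CPM, and LYP1, the lysine permease, 134 and 138 CPM against 229 and 213 CPM. The lower one was BAP2, a branched-chain amino acid permease, with 260 and 261 CPM against 155 and 135 CPM (log2 difference -0.84, SE 0.10, edgeR adjusted p = 2.45e-05). HIP1, the histidine permease, rose by 0.64 on the log2 scale (edgeR adjusted p = 0.102, 0.0838 and 0.119 without SRP72p replicate 1, SRP72p replicate 2 or GIT1p replicate 1). In the fits without 1 library 4 to 7 permeases were called.

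Phosphate genes gave 6 higher and 1 lower of 23 tested (median 0.21), and 5 higher and 5 lower with library totals alone. PHO84, the high-affinity phosphate transporter, gave 253 and 214 CPM against 632 and 695 CPM (log2 difference 1.5, SE 0.10, edgeR adjusted p = 7.47e-08). PHO5, the repressible acid phosphatase, gave 98.7 and 92.0 CPM against 219 and 228 CPM. GDE1, which cleaves glycerophosphocholine, gave 98.2 and 105 CPM against 186 and 182 CPM. Of 15 P-type ATPases of the plasma membrane and vacuole and their relatives, 3 were higher and 2 lower. With library totals alone 2 of the 15 were higher and 6 lower. PCA1, a cadmium-transporting ATPase, rose from 40.5 and 38.7 to 130 and 83.7 CPM. SPF1, the ATPase of the ER membrane, fell from 310 and 306 to 232 and 216 CPM (log2 difference -0.46, edgeR adjusted p = 0.00442, and 0.0549 without GIT1p replicate 2), and DRS2, a lipid flippase, by 0.56 on the log2 scale (edgeR adjusted p = 0.0279, and lost without any 1 of the 4 libraries, with 0.0745 to 0.140).

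With TMM scaling, most of the called genes of lipid synthesis were higher, but the inositol and phospholipid list as a whole did not lean higher. Of its 23 genes 4 were higher and 1 lower, against 12.7% and 12.1% of all genes. Its median was -0.17, against -0.02 for all genes. Besides INO1, ITR1, the inositol transporter, gave 198 and 177 CPM against 410 and 384 CPM (log2 difference 1.08) and OPI3, a phospholipid methyltransferase, rose by 0.60. INO2, the activator of these genes, fell by 1.01 on the log2 scale (edgeR adjusted p = 0.0216, and 0.159 and 0.179 without SRP72p replicate 1 or GIT1p replicate 1). Ergosterol synthesis had 7 higher and 1 lower of 24 (median 0.17): ERG5, ERG1, ERG3 and ERG25 differed by log2 0.92, 0.61, 0.58 and 0.54. Without 1 library 4 to 6 ergosterol genes were called. With library totals alone most calls in both lists were lower. The split was 2 higher and 4 lower for inositol and phospholipid genes, and 3 higher and 4 lower for ergosterol synthesis.

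Carbon metabolism genes were higher or not called. Of 21 glycolytic and fermentation enzymes 10 were called higher and none lower (median 0.32), none was called with RPKM-implied totals, and 1 of 7 calls was lower with library totals alone. ENO1, an enolase, gave 7121 and 6925 CPM against 14209 and 14293 CPM (log2 difference 1.02, SE 0.13, edgeR adjusted p = 7.75e-05), and HXK1, ADH2 and GLK1, of which ADH2 is the glucose-repressed alcohol dehydrogenase, differed by 0.88, 0.84 and 0.73. Enolase and other members have close paralogs, so reads may be divided among them. Of 11 maltose and galactose genes tested 4 were higher and none lower. SUC2, invertase, gave 46.2 and 49.1 CPM against 117 and 112 CPM. MAL12 and MAL32, near-identical maltases, differed by 2.23 and 2.15 and may share reads, and MAL11, the maltose permease, by 2.45 (edgeR adjusted p = 0.0392, and 0.317, 0.0638 and 0.235 without SRP72p replicate 1, SRP72p replicate 2 or GIT1p replicate 1).

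Iron regulon genes gave 5 higher and 1 lower of 16 (median 0.79), mostly at low levels. The largest rise was in FIT1, a wall protein that retains siderophore iron, with 0.737 and 1.04 CPM, at or under 3 counts, against 9.72 and 6.56 CPM (edgeR adjusted p = 0.0055, and 0.0955 without SRP72p replicate 1). FRE1, the surface ferric reductase, fell from 49.4 and 41.8 to 22.5 and 19.7 CPM. FIT3 and ARN2, with log2 differences of 1.42 and 1.63, were each lost without SRP72p replicate 1, SRP72p replicate 2 or GIT1p replicate 1 (edgeR adjusted p = 0.175, 0.0999 and 0.228 for FIT3, and 0.114, 0.0544 and 0.0969 for ARN2).

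The collision and ribosome quality control factors had 4 higher and 3 lower of 19 (median -0.06), so 7 members moved in both directions. RQT4 (YKR023W; chromosome XI, 483419 to 485011), a subunit of the RQT complex that acts after Hel2, gave 16.0 and 11.5 CPM in the SRP72p libraries and 108 and 162 CPM in the GIT1p libraries, 9.84-fold higher (log2 difference 3.24, SE 0.32, edgeR adjusted p = 5.19e-06). It was called in all fits without 1 library, and was the only member of the list called with RPKM-implied totals. CUE3, HEL2, SYH1 and DOM34, given below, were lost under that scaling (edgeR adjusted p = 0.295, 0.811, 0.755 and 0.590). CUE3, the other small subunit of the RQT complex, rose from 27.5 and 30.8 to 47.7 and 58.7 CPM (log2 difference 0.88, SE 0.18, edgeR adjusted p = 0.0021). SLH1, its helicase, gave 167 and 156 CPM against 207 and 196 CPM and was not called (log2 difference 0.32, edgeR adjusted p = 0.0608).

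HEL2 itself (YDR266C) gave 102 and 106 CPM against 70.7 and 67.7 CPM, 1.5-fold lower in GIT1p (log2 difference -0.58, SE 0.12, edgeR adjusted p = 0.00265). In the HEL2-FTP membrane IP its own mRNA gave 385 and 393 RPM against 82.3 and 83.8 RPM in the input. In the other strains the HEL2 level in the membrane IPs was between 67.7 and 106 CPM and in the membrane inputs between 65.1 and 74.8 CPM. SYH1, a protein linked to the decay of mRNAs with stalled ribosomes, fell from 107 and 125 to 71.6 and 73.4 CPM (log2 difference -0.67, SE 0.12, edgeR adjusted p = 0.00106). DOM34, which splits ribosomes stalled at an mRNA end, rose by 0.77 on the log2 scale (edgeR adjusted p = 0.0405, and 0.177, 0.0979 and 0.293 without SRP72p replicate 1, SRP72p replicate 2 or GIT1p replicate 1). The other called members, named after their values were seen, were SMY2, with a log2 difference of 0.45, and ASC1, the ribosomal protein at the site that Hel2 works near, with -0.55. The ubiquitin ligase RKR1, RQC1, RQC2, CDC48, GCN1 and GCN2 were not called.

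The lists for the machinery at the ER are set against the 24.7% of all tested genes called in either direction. Of 9 subunits of the Sec61 and Ssh1 channels 2 were lower and none higher. The 2 were SBH1, with 21.1 and 25.6 CPM against 11.5 and 9.03 CPM (edgeR adjusted p = 0.00517, and 0.0639 without GIT1p replicate 2), and SBH2, with 30.0 and 25.6 CPM against 11.0 and 15.2 CPM (edgeR adjusted p = 0.0149, and 0.129 and 0.128 without SRP72p replicate 1 or GIT1p replicate 1), the small tail-anchored subunits of each channel. SEC61, the channel itself, gave a log2 difference of -0.07. In the GET and SND routes, which take proteins to the ER without SRP, 1 of 9 was higher and 1 lower. The higher one was SGT2, with 679 and 730 CPM against 950 and 1048 CPM (edgeR adjusted p = 0.00575, and 0.0598 without SRP72p replicate 1), and the lower one was GET3 (log2 difference -0.36, edgeR adjusted p = 0.0219, and 0.0550, 0.119 and 0.227 without SRP72p replicate 1, SRP72p replicate 2 or GIT1p replicate 1).

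None of 9 oligosaccharyltransferase subunits was called (median -0.35) in the edgeR fit. With library totals alone 4 were called, all lower, and 1 was called with DESeq2, without the filter and in the 4 membrane IPs alone. STT3, the catalytic subunit, gave 304 and 271 CPM against 292 and 309 CPM, and OST1 107 and 84.6 CPM against 102 and 94.4 CPM, with overlapping groups. Of 6 protein O-mannosyltransferases 1 was higher, PMT5 (log2 difference 0.63, edgeR adjusted p = 0.0422), and 1 lower, PMT4 (-0.36, edgeR adjusted p = 0.0483), and no fit without 1 library called either. Of 15 ER chaperones and oxidative folding enzymes 4 were higher and none lower (median 0.27): SIL1, FPR2, ERV2 and PDI1 differed by 0.77, 0.59, 0.50 and 0.46. PDI1, protein disulfide isomerase, gave 511 and 523 CPM against 723 and 703 CPM. Without 1 library 1 to 3 members of the list were called. PDI1 was lost without SRP72p replicate 1, SRP72p replicate 2 or GIT1p replicate 1 (edgeR adjusted p = 0.0829, 0.0594 and 0.0531). SIL1 was lost without the second replicate of either label (edgeR adjusted p = 0.110 for SRP72p and 0.147 for GIT1p), ERV2 without SRP72p replicate 1 or GIT1p replicate 2 (0.147 and 0.0696), and FPR2 without all but SRP72p replicate 1 (0.0617 to 0.149). Of 11 genes of ER-associated degradation 2 were higher, UBC6 and DFM1, with log2 differences of 0.71 and 0.49. Without 1 library 0 to 2 of the list were called. UBC6 was lost without SRP72p replicate 2 or GIT1p replicate 1 (edgeR adjusted p = 0.0506 and 0.0581), and DFM1 without SRP72p replicate 2 or GIT1p replicate 2 (0.123 and 0.116).

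Mitochondrial lists went apart. The 18 frames encoded in mitochondria had a median log2 difference of 0.98 and none was called when all 16 libraries set the spread (8 of those libraries are inputs with unlike mitochondrial shares), while 16 were called in a fit of the 8 IP libraries and 17 in a fit of the 4 membrane IPs alone. AI1, an intron frame of COX1, gave 1010 and 1099 CPM against 2213 and 1810 CPM, and AI2 1688 and 1643 CPM against 2690 and 2106 CPM. Intron frames share reads with COX1 where they overlap. Nuclear-encoded subunits of the respiratory chain and ATP synthase had 11 higher and 2 lower of 40 (median 0.18). With library totals alone 6 were higher and 7 lower. QCR10 gave 38.6 and 36.6 CPM against 85.3 and 93.1 CPM (log2 difference 1.24, SE 0.18, edgeR adjusted p = 0.000156), CYC7, the hypoxic cytochrome c isoform, differed by 1.22, COX13 by 1.01 and ATP7 by 0.78. Mitochondrial chaperones and import factors had 6 lower and 1 higher of 20. The lower ones included TOM6 (log2 difference -1.20, edgeR adjusted p = 0.00982, and 0.109 without GIT1p replicate 2) and MDJ1, a mitochondrial Hsp40, with 262 and 236 CPM against 176 and 151 CPM, and the higher one was TOM20 (0.63, and edgeR adjusted p = 0.148 without SRP72p replicate 2 and also without GIT1p replicate 2). Without 1 library 2 to 4 of the list were called.

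Cytosolic heat shock genes moved both ways, 4 higher and 4 lower of 17. HSP12, a small stress protein, gave 158 and 161 CPM against 1028 and 1118 CPM, 6.73-fold higher (log2 difference 2.75, SE 0.14, edgeR adjusted p = 2.96e-08). HSP26, a small heat shock protein, rose from 535 and 556 to 2189 and 2452 CPM and SSA3, a stress-induced Hsp70, from 32.2 and 23.0 to 120 and 130 CPM. BTN2, which sorts misfolded proteins, fell from 3298 and 3398 to 1641 and 1840 CPM.

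Cytosolic ribosomal protein genes were taken as a family by symbol after the values had been seen, so their count is a description. Of 137 tested, 118 were called lower and 1, RPL22B, higher (log2 difference 0.62), with a median of -0.63. Small subunit genes summed to 26252 and 26528 CPM in the SRP72p libraries and 17196 and 16890 CPM in the GIT1p libraries, and large subunit genes with the stalk to 39827 and 40069 CPM against 27899 and 26639 CPM. In the cytosolic IPs the median was -0.26 and in the membrane inputs -0.51. In the cytosolic inputs 131 of the 137 (95.6%) were called lower and the median was -0.66, where 12.4% of all tested genes were lower and 13.4% higher. Most exist as close paralog pairs between which reads may be divided. The fits without 1 library called 89 to 95 of them, and the RPKM-implied totals 1, with the median then at -0.58 relative to that of all genes.

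**Figure D3:**
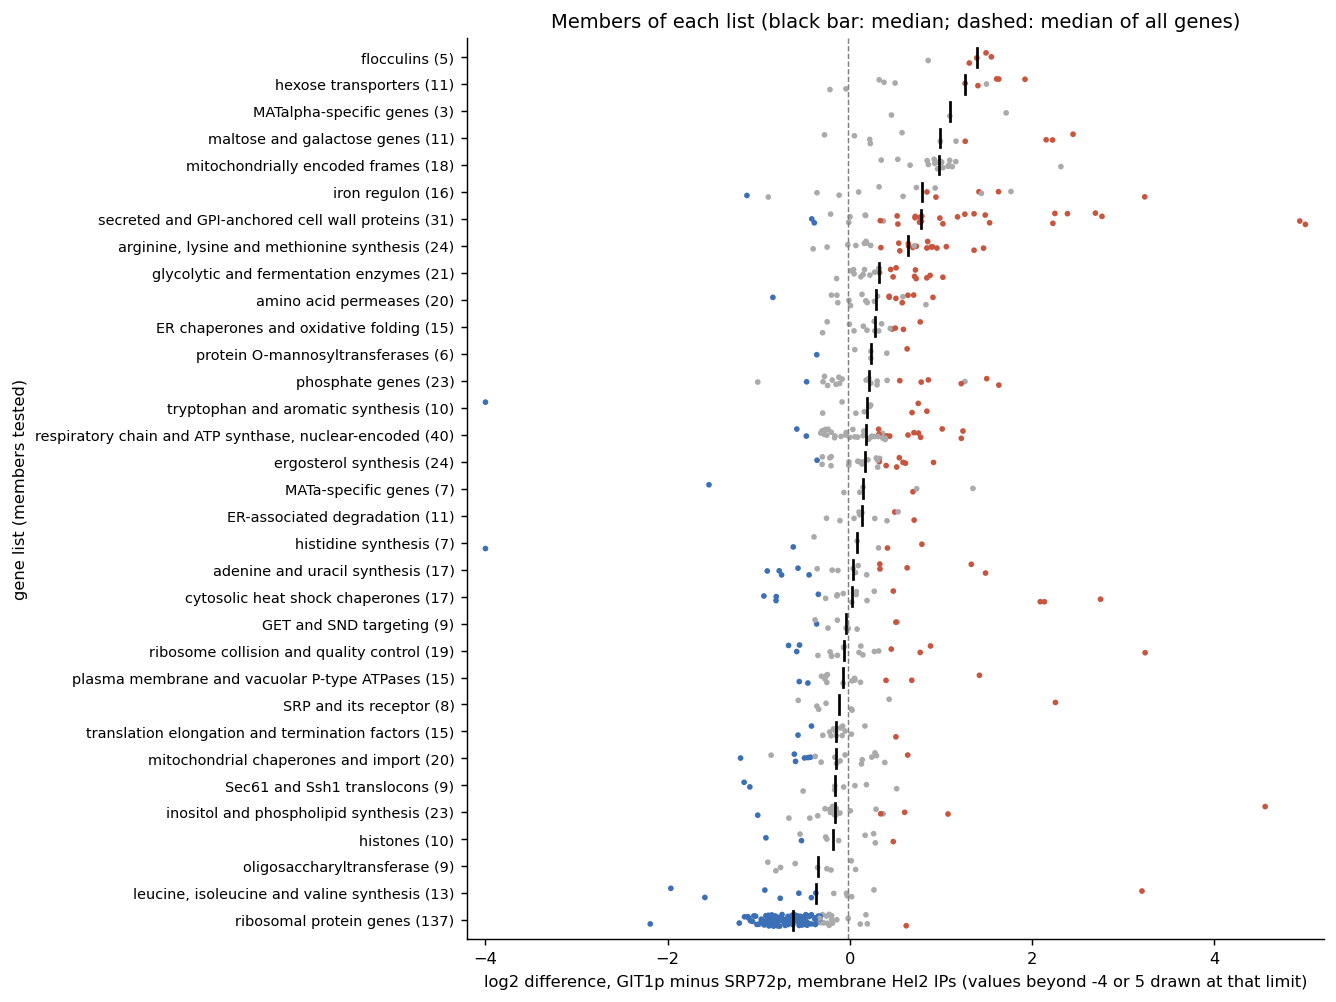
Log2 difference, GIT1p minus SRP72p, of each tested member of 32 gene lists and of the ribosomal protein genes in the membrane Hel2 IPs, with values beyond the axis drawn at -4 or 5. Points are red (called higher), blue (called lower) or grey (not called), black bars are list medians and the dashed line is the median of all genes. Wall proteins, hexose transporters and flocculins lie to the right, and ribosomal protein and branched-chain amino acid genes to the left.

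Translation elongation and termination factors had 1 higher (CAM1) and 2 lower (HYP2 and RLI1) of 15, with log2 differences of 0.51, -0.57 and -0.42. HYP2 was lost without SRP72p replicate 2 or GIT1p replicate 1 (edgeR adjusted p = 0.0639 and 0.0865) and RLI1 without SRP72p replicate 1 or GIT1p replicate 2 (0.0987 and 0.115). Of 10 histone genes 1 was higher and 2 lower: HTB2 gave 140 and 138 CPM against 79.5 and 67.7 CPM, HTA2 fell by 0.53 on the log2 scale (edgeR adjusted p = 0.0785 and 0.130 without SRP72p replicate 2 or GIT1p replicate 1), and HHT1 rose by 0.48 (edgeR adjusted p = 0.0917 to 0.0996 without SRP72p replicate 1, SRP72p replicate 2 or GIT1p replicate 2). Histone pairs encode near-identical proteins. Of 7 MATa-specific genes BAR1, the protease that cuts alpha factor, rose from 150 and 157 to 233 and 263 CPM, and MFA1, a-factor, fell from 10.8 and 18.3 to 4.86 and 4.51 CPM (edgeR adjusted p = 0.0207, and 0.110, 0.0880 and 0.111 without SRP72p replicate 2, GIT1p replicate 1 or GIT1p replicate 2). The 3 MATalpha-specific genes tested were not called.

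Length and place were not used to choose anything. Genes of 601 to 1500 nucleotides were more often higher than lower: 13.5% against 8.68% for 601 to 1000 and 14.7% against 7.14% for 1001 to 1500. Both ends of the length range leaned to lower: 17.9% of genes up to 300 nucleotides and 17.7% of those of 301 to 600 were called lower against 12.1% and 8.81% higher, and of those over 2500 nucleotides 16.1% were lower and 9.17% higher. The ribosomal protein genes had a median length of 432 nucleotides, and some of them were longer than 600. Their 118 lower calls were not taken out of these shares, where the 2 shortest classes held 40 and 149 lower calls. The lean of short genes therefore cannot be told apart here from that of this family. By chromosome, III stood out in share, with 32 of 148 genes (21.6%) higher and 8 (5.41%) lower and a median log2 difference of 0.19. Its median was 0.19 in the cytosolic IPs and 0.04 in the membrane inputs. The other nuclear chromosomes had medians between -0.09 and 0.09.

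Much of the difference between labels was also present in the cytosolic IPs and the membrane inputs, which are other libraries of the same 2 labels. Of the 723 genes higher in the membrane IPs, 518 (71.6% of them, and 48.5% of the cytosolic list) were also called higher in the cytosolic IPs, where 18.7% of tested genes were, and 409 (56.6%, and 59.8% of the input list) in the membrane inputs, where 12.0% were. Of the 690 lower genes, 310 (44.9%, and 55.6% of the cytosolic list) were also lower in the cytosolic IPs, where 9.77% of tested genes were, and 232 (33.6%, and 64.4% of the input list) in the membrane inputs, where 6.3% were. All 3 comparisons were fitted together and share 1 estimate of the spread per gene.

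A test of whether the label difference itself differed between membrane and cytosolic IPs called 186 genes (3.26% of those tested), 28 higher (0.49%) and 158 lower (2.77%) in the membrane IPs. Among the 158, 129 (81.6%) belonged to the genes enriched at the membrane in the HEL2-FTP inputs, a set taken from other libraries that held 865 (15.1%) of all tested genes. Of the 158, 136 were called higher under GIT1p in the cytosolic IPs. The share of the lower calls that belonged to the membrane-enriched set was 72.5% to 95.1% under each other setting that called any gene. The count was not steady: 36 and 65 genes were called without SRP72p replicate 1 or 2, 35 and 86 without GIT1p replicate 1 or 2, and none at RPKM-implied totals, with 266 genes at an unadjusted p below 0.05 by edgeR there.

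The level of the membrane-enriched set differed between fractions. In the membrane IPs its median log2 difference was 0.10 against -0.05 for 4637 other tested genes, and 165 of 865 were higher and 56 lower. In the cytosolic IPs the median was 0.66 against -0.03, with 481 higher and 23 lower. In the membrane inputs the medians were 0.08 and 0.05. Matched by replicate number, the set lay above other genes by 0.13 and 0.19 in the membrane IPs. In the cytosolic IPs the set lay above them by 0.70 and 0.67. The matching is arbitrary, since replicate numbers did not pair the samples (correlations of deviations of -0.0088 and -0.0596). The 1398 genes enriched with Hel2 in the HEL2-FTP membrane IP lay below the others in the membrane IPs, with medians of -0.15 and 0.02. Of them, 96 were higher and 237 lower. They also lay below the others in the cytosolic IPs (-0.08 and 0.09) and the membrane inputs (0.01 and 0.07). With the set taken at log2 at least 2, the membrane IP medians were -0.15 and -0.01.

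**Figure D4:**
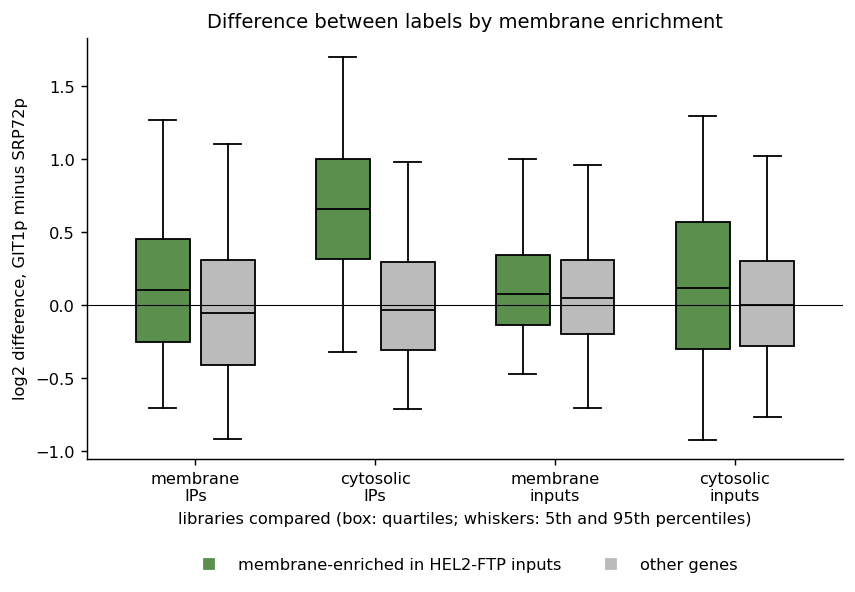
Log2 difference, GIT1p minus SRP72p, of the 865 tested genes enriched at the membrane in the HEL2-FTP inputs (green) and of 4637 other tested genes (grey), in 4 kinds of library. Boxes show quartiles and whiskers the 5th and 95th percentiles. The green box lies clear of the grey box's median in the cytosolic IPs (0.66 against -0.03) and near it in the membrane IPs (0.10 against -0.05).

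SPF1, the ER ATPase, was called in all 4 fits without 1 membrane IP library: it was lower under GIT1p in the membrane IPs but gave 231 and 244 CPM against 491 and 456 CPM in the cytosolic IPs (difference of log2 differences -1.46, SE 0.14, edgeR adjusted p = 0.0004). STT3 and OST1, not called in the membrane IPs, were higher in the cytosolic IPs by log2 0.73 and 0.71, and these differences between fractions, -0.67 and -0.70, were lost without SRP72p replicate 1 (edgeR adjusted p = 0.0710 and 0.175) and without GIT1p replicate 1 (0.0659 for STT3), and that of OST1 also without GIT1p replicate 2 (0.135). In all, 5 of 9 oligosaccharyltransferase subunits, 4 of 6 O-mannosyltransferases and 6 of 15 ER folding genes were called lower in the membrane IPs relative to the cytosolic IPs, where 2.77% of tested genes were.

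A few genes went the other way. HAC1, the transcription factor of the unfolded protein response, gave 101 and 76.8 CPM against 303 and 298 CPM in the membrane IPs and 364 and 345 CPM against 272 and 276 CPM in the cytosolic IPs (difference 2.11, SE 0.40, edgeR adjusted p = 0.016, and 0.0567, 0.0754 and 0.0596 without SRP72p replicate 1, SRP72p replicate 2 or GIT1p replicate 1). ENT2, an epsin of endocytosis, gave 122 and 125 CPM against 334 and 379 CPM in the membrane IPs and 129 and 113 CPM against 161 and 162 CPM in the cytosolic IPs (difference 1.11, SE 0.15, edgeR adjusted p = 0.0041). TIR1 rose by 4.94 in the membrane IPs and by 1.81 in the cytosolic IPs (difference 3.13, edgeR adjusted p = 0.0074, and 0.0635 without SRP72p replicate 1).

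Set against the membrane inputs, 140 genes had a different label difference in the membrane IPs, 61 higher (1.07%) and 79 lower (1.38%). The 2 SRP72p inputs were unlike each other, and the count was 216 without input replicate 1 and 384 without input replicate 2, and 75 to 85 without 1 membrane IP library. PRB1, vacuolar proteinase B, gave 2907 and 2813 CPM against 1012 and 1004 CPM in the membrane IPs but 500 and 559 CPM against 963 and 947 CPM in the membrane inputs, so the labels stood in opposite order (difference -2.36, SE 0.16, edgeR adjusted p = 4.3e-06). PAL2 was likewise lower under GIT1p in the IPs while the inputs gave 56.5 and 64.3 CPM against 76.1 and 84.3 CPM (difference -2.09, SE 0.20, edgeR adjusted p = 7.1e-05).

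RQT4 footprints were most abundant in the GIT1p membrane IPs. The cytosolic IPs gave 18.4 and 13.2 CPM against 38.2 and 44.6 CPM, the membrane inputs 13.8 and 15.7 CPM against 10.5 and 13.9 CPM, and the cytosolic inputs 9.70 and 22.0 CPM against 9.44 and 6.64 CPM. The difference from the membrane inputs was 3.54 (SE 0.46, edgeR adjusted p = 0.0012) and was called without any 1 IP library. The HEL2-FTP membrane IP and input gave 10.4 and 8.70 RPM and 15.0 and 14.8 RPM.

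ENT2 did not differ beyond the test in the membrane inputs, with 87.9 and 90.1 CPM against 83.4 and 78.1 CPM, and its difference between IP and input was 1.67 (SE 0.15, edgeR adjusted p = 3.4e-05). SRP72 itself differed by 2.26 in the IPs and 1.26 in the inputs, a gap of 1.00 (SE 0.17, edgeR adjusted p = 0.0072), and HIS3 by -6.80 and -4.69, a gap of -2.12 (SE 0.24, edgeR adjusted p = 0.00029). FLO1 was higher under GIT1p in the IPs but gave 32.6 and 15.5 CPM against 6.60 and 16.0 CPM in the membrane inputs (difference 2.72, SE 0.46, edgeR adjusted p = 0.0072). QCR10 rose in the IPs and had a log2 difference of -0.06 in the inputs (difference 1.30, SE 0.23, edgeR adjusted p = 0.0087). With RPKM-implied totals these differences between IPs and inputs were not called for SRP72, ENT2, FLO1 and QCR10 (edgeR adjusted p = 0.674, 0.411, 0.102 and 0.515).

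**Figure D5:**
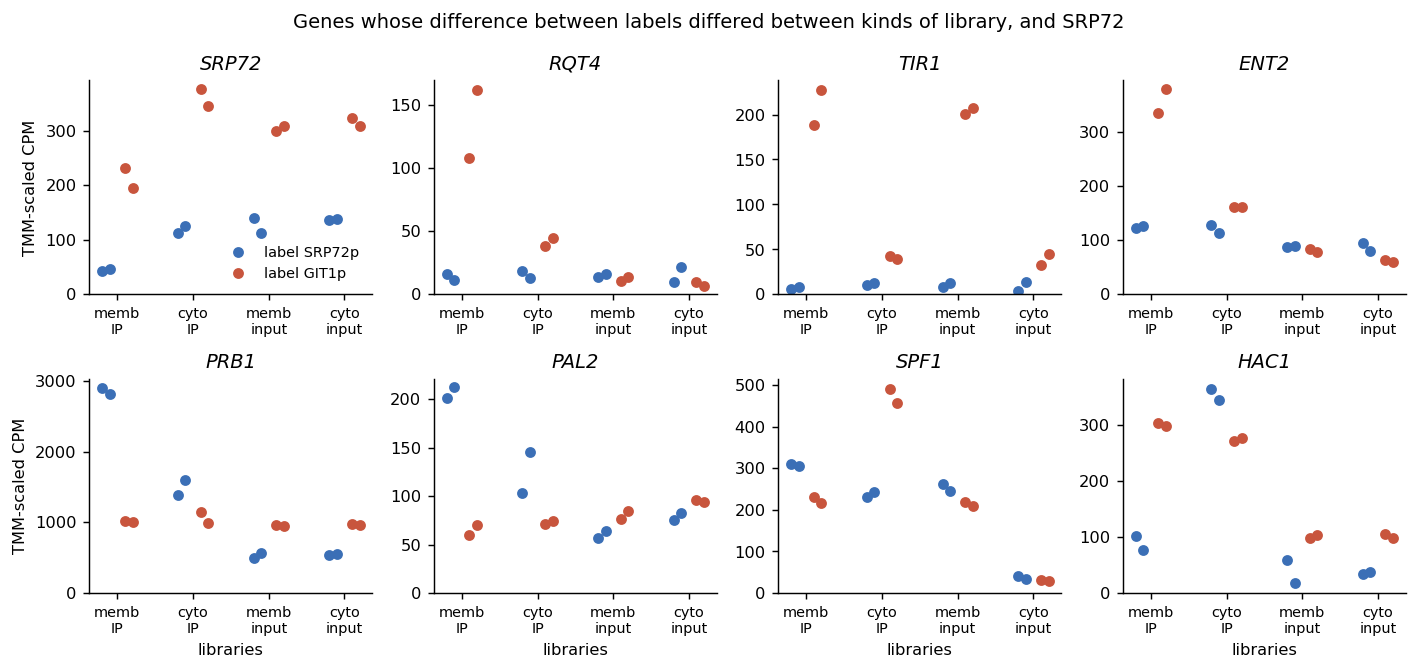
TMM-scaled CPM (linear axis from 0) of 8 genes in the membrane IPs, cytosolic IPs, membrane inputs and cytosolic inputs, with 2 libraries per label as points. RQT4 and ENT2 are highest in the GIT1p membrane IPs, PRB1 and PAL2 in the SRP72p membrane IPs, and SPF1 in the GIT1p cytosolic IPs.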

How the data were processed

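Ribosome footprints were sequenced from IPs with Hel2 and from inputs. The authors deposited raw counts per gene and RPKM values for the promoter strains, and, for HEL2-FTP, RPM per codon, which was summed over each coding sequence. The submitters' processing notes name CASAVA 1.8, UMI-tools, Bowtie2, TopHat and sacCer3. Their roles, the counting tool, its use of strand and whether molecular identifiers were collapsed are not given in the sources used here. Genes were named through RefSeq (R64), which matched 6008 of 6696 features.

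The 16 promoter-strain libraries (8 groups of 2) were fitted together in R 4.3.3 with edgeR 4.0.16 (quasi-likelihood test), using TMM scaling, the default expression filter and Benjamini-Hochberg adjustment over 5714 genes. A gene was called at an adjusted p below 0.05. CPM are TMM-scaled, and a log2 difference is GIT1p minus SRP72p. HEL2-FTP sets came from limma 3.58.1 on log2(RPM + 0.5) in 6 libraries and 5520 genes, with log2 at least 1. The deposited RPKM values served only for the library totals they imply. DESeq2 1.42.0, other scalings, other filters, other sets of libraries and a replicate block were alternatives, and the fit was tested on simulated data with 200 changed genes.

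Genes named by rule were SRP72, HEL2, GIT1, the other SRP genes, the markers and the 12 largest rises and falls. They also included up to 4 called members of each of 32 lists by size. Where fewer than 2 were called, the 2 most abundant members were taken. A further 4 genes each way came from each test between kinds of library. Some other genes were named outside the rule. These rules and lists were chosen with earlier results of these data known. One gene that the rule names is not reported here.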

Additional observations from a re-analysis of the deposited data

Results flagged for a closer look

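These genes had a difference between labels that itself differed between kinds of library, by a test of that difference in edgeR. Values are the log2 difference, GIT1p minus SRP72p, in the membrane IPs minus that in the other libraries.

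Against the cytosolic IPs, 186 genes were called. Those named by rule with a negative value were the ER and secretory genes SPF1 (-1.46), DFM1 (-1.14), PMT4 (-1.05), PDI1 (-0.73), OST1 (-0.70) and STT3 (-0.67). The permeases BAP2 (-0.74) and AGP1 (-0.52) were also negative, as were EXP1 (-2.45), RCR2 (-2.06), FEX1 (-1.90), PKR1 (-1.53), PRB1 (-1.03), PAL2 (-0.89) and HEL2 (-0.85). Positive values were those of TIR1 (3.13), HAC1 (2.11), RQT4 (1.82), ENT2 (1.11), TOM20 (1.07) and ARG1 (0.51). PRB1, ENT2 and SPF1 were called in all 4 fits without 1 membrane IP library. HEL2, PAL2, RQT4, PDI1, AGP1, ARG1, FEX1 and RCR2 were lost in all 4, with edgeR adjusted p from 0.0506 (RCR2) to 0.158 (AGP1) and of 0.0594 to 0.0713 for HEL2. PMT4 (0.0544) and TIR1 (0.0635) were lost without SRP72p replicate 1 alone. BAP2 was lost without SRP72p replicate 1 or GIT1p replicate 2, and DFM1 and STT3 without SRP72p replicate 1 or GIT1p replicate 1 (0.0567 to 0.0856 over these 3 genes). HAC1 and EXP1 were lost in all fits but that without GIT1p replicate 2, OST1 in all but that without SRP72p replicate 2, and PKR1 and TOM20 in all but that without SRP72p replicate 1 (0.0567 to 0.175 over these 5 genes). With the replicate block RQT4 was lost (edgeR adjusted p = 0.0537).

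Against the membrane inputs, 140 genes were called. Positive values were those of DAN4 (4.62), RQT4 (3.54), FLO5 (2.76), FLO1 (2.72), FLO9 (2.57), ENT2 (1.67), QCR10 (1.30), SRP72 (1.00) and HSP12 (0.84). Negative values were those of PRB1 (-2.36), HIS3 (-2.12), PAL2 (-2.09), OGG1 (-1.93), MSR1 (-1.87), LDB17 (-1.86), SUC2 (-0.87) and SYH1 (-0.82). PRB1, ENT2, PAL2, HIS3, RQT4, FLO1, FLO9, QCR10 and SRP72 were called in all 4 fits without 1 membrane IP library. Of these, SRP72, QCR10, ENT2, FLO9 and FLO1 were lost with RPKM-implied totals (edgeR adjusted p = 0.674, 0.515, 0.411, 0.167 and 0.102). HSP12, SYH1, SUC2, FLO5 and OGG1 were also lost under that scaling (0.0501 to 0.838). HSP12, MSR1 and DAN4 were lost in all 4 (edgeR adjusted p = 0.0516 to 0.122). FLO5 was lost in all but that without GIT1p replicate 2, LDB17 in all but that without SRP72p replicate 2, SYH1 and OGG1 in all but that without SRP72p replicate 1, and SUC2 without SRP72p replicate 2 or GIT1p replicate 2 (0.0559 to 0.141 over these 5 genes). With the replicate block DAN4 was lost (edgeR adjusted p = 0.0627). The DAN4 difference was also not called without SRP72p membrane input replicate 1 (edgeR adjusted p = 0.955), and neither was that of MSR1 (0.0623).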

How the results depend on the processing

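Of the 123 named genes called in the membrane IPs, 81 were called in all 4 fits without 1 membrane IP library, and 45 with RPKM-implied library totals. The 1413 calls in the membrane IPs became 869 to 934 without 1 membrane IP library, up to 1622 without 1 SRP72p membrane input, and 147 (127 higher, 20 lower) with RPKM-implied totals. They split as 435 higher and 1310 lower with library totals alone, where the median of all genes was -0.24, and as 591 and 911 without the expression filter. The 186 calls against the cytosolic IPs became 35 to 86 without 1 membrane IP library, 0 with RPKM-implied totals and 361 in the 8 IP libraries alone. They split as 52 higher and 82 lower with DESeq2 size factors, 115 and 151 with DESeq2, 12 and 255 with library totals alone, and 42 and 104 without the filter. The 140 calls against the membrane inputs became 75 to 85 without 1 membrane IP library, 66 (50 higher, 16 lower) with RPKM-implied totals, 684 (48 and 636) with library totals alone and 277 (213 and 64) with DESeq2, and split as 110 and 61 with DESeq2 size factors. Without SRP72p membrane input replicate 1 or 2, alternatives chosen after seeing the data, the last 2 counts were 333 and 335, and 216 and 384. The cause was not tested for any of these.

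Replicate numbers did not pair the samples, with correlations of deviations of -0.0088 in the membrane IPs, -0.0596 in the cytosolic IPs and -0.429 in the membrane inputs. With the replicate block the 3 counts were 1415, 211 and 136, and with the membrane input numbers crossed the last was 138. The block ended the call of DAN1 in the membrane IPs (edgeR adjusted p = 0.0511), of RQT4 against the cytosolic IPs (0.0537) and of DAN4 against the membrane inputs (0.0627). The tests against other libraries could not be run in the 4 membrane IP libraries alone, nor that against inputs in the 8 IP libraries alone.

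No called gene named by rule reversed. Among uncalled ones, with library totals alone, URA3, SEC65, SRP54, STT3 and OST1 were at -0.19, -0.20, -0.21, -0.16 and -0.21, and without the filter at -0.059, -0.071, -0.080, -0.032 and -0.080. With DESeq2, SRP54 and OST1 were at -0.0017 and -0.0046. Without 1 membrane IP library, URA3 ranged from -0.15 to 0.23, SRP14 from -0.82 to 0.029, SEC65 from -0.079 to 0.095, SRP54 from -0.075 to 0.14, STT3 from -0.017 to 0.16 and OST1 from -0.13 to 0.22. Depth limits the low genes, since 3 counts were worth up to 1.57 CPM.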

Other observations

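Features with no RefSeq entry, singled out after their values were seen, also differed between labels in the membrane IPs. YDR008C, counted separately from TRP1, gave 107 and 106 CPM in the SRP72p libraries and 0.884 and 0 CPM in the GIT1p libraries. YOR203W, counted separately from HIS3, gave 269 and 239 CPM against 7.95 and 1.64 CPM. Whether YDR008C and YOR203W share reads with TRP1 and HIS3 was not tested, so they may not be separate from the marker differences. YOL013W-A gave 3034 and 2469 CPM against 574 and 371 CPM, and was also lower under GIT1p in the cytosolic IPs (log2 difference -1.60). In the membrane inputs its labels stood in opposite order, with 62.3 and 14.6 CPM against 617 and 1311 CPM. The difference between membrane IP and input was -7.15 (SE 0.74, edgeR adjusted p = 0.000104). The cytosolic inputs also gave a higher level under GIT1p (log2 difference 2.31). Of the called genes, 10 of the higher and 31 of the lower had no RefSeq entry.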
